A study of Mus musculus with 5 samples.

Results

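Gpr83, Izumo1r, Nrp1, Lrrc32, Capg, Plagl1, Swap70 and Homer2 belong to the transcript signature that sets regulatory T cells (Tregs) apart from other CD4 T cells. These 8 genes were taken by symbol, out of 49260 matched symbols, and each was found under 1 gene ID in the deposited tables. Their levels were read in 5 RNA-seq libraries of sorted Tregs, with 1 library in each group. All mice were of the C57BL/6 strain and carried Foxp3Cre, a Cre recombinase driven by the Foxp3 gene, so that the Cre acts in Foxp3-expressing cells.

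The lymph node (LN) library came from 4-month Foxp3Cre mice. A second 4-month Foxp3Cre library came from adipose tissue and is called lean here because its labels name no obesity. The obese 4-month Foxp3Cre library came from adipose tissue of obese mice and has HFD in its title. Adipose Tregs of 10-month Foxp3Cre mice gave the fourth library. The fifth is labelled Med23fl/fl;Foxp3Cre, from 10-month mice, and is called the library labelled Med23 KO. The sources used here do not give the sort gate or the number of mice pooled in a library. They do not name the sex of the mice either, which is read below from Ddx3y and Xist.

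Tregs restrain other immune cells and depend on the transcription factor Foxp3. The signature genes beyond Foxp3 differ in their place in the cell. Gpr83 encodes a G protein-coupled receptor and Izumo1r a protein of the folate receptor family held in the membrane by a lipid anchor, long used as a Treg surface marker. Nrp1 encodes neuropilin 1, a co-receptor for semaphorins and vascular endothelial growth factor that marks many thymus-derived Tregs. Lrrc32 encodes GARP, which holds latent TGF-beta on the Treg surface. Capg and Swap70 encode proteins that act on the actin cytoskeleton, Plagl1 encodes an imprinted zinc finger transcription factor, and Homer2 encodes a scaffold protein that can compete with calcineurin for NFAT. Adipose Tregs are known as a tissue population with a programme of their own.

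Levels are given as CPM, the reads of a gene after scaling the reads listed in its library to a total of 1000000. The listed reads numbered 4595046 in the library labelled Med23 KO and 7496496 to 9694474 in the other 4. Ratios within a deposited table use the authors' scaled counts, and ratios across tables use CPM. The interval after each value or fold covers counting error at 95% confidence and no difference between animals. With 1 library per group there is no replicate check, and no test between conditions exists. A value listed at 0 stands for fewer than 1 scaled count, and a gene counts as measured in a comparison if either library reached 1.

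Several facts of the libraries bear on every result. Med23, the gene of a Mediator complex subunit, was at 7.02 scaled counts in 10-month Foxp3Cre adipose and at 13.9 in the library labelled Med23 KO, 1.98-fold higher (1.39 to 2.84), which goes against the label. Med23 was at 46.8 CPM in lean and 33.3 CPM in obese adipose, above the 15.5 CPM of the library labelled Med23 KO. The sources used here do not say which Med23 exons are floxed. Both 4-month adipose libraries stood apart. They held the Y-linked gene Ddx3y at 560 and 562 CPM against 0 in LN and in both 10-month libraries. Xist, transcribed from the silenced X, was at 0 and 3.60 CPM there against 228 to 602 CPM in the other 3 libraries. By these genes the lean and obese 4-month adipose libraries read as male and the other 3 as female. Sex therefore cannot be told apart from tissue in the ratios of lean and obese adipose to LN. Gapdh, a glycolytic enzyme usually abundant in all cells, was at 1.05 CPM in lean and 10.7 CPM in obese adipose against 548 to 979 CPM elsewhere. For this reason the 10-month Foxp3Cre adipose library is set beside LN as a comparison without them, in which age and tissue cannot be told apart. The 7 Treg and T cell markers, Foxp3 and Cd4 among them, were above 0 in all 5 libraries. Their median log2 ratio to LN was -0.98 in lean and -0.68 in obese adipose, and the CD3 chain genes Cd3e, Cd3d and Cd3g were lower by 2-fold or more there. In 10-month Foxp3Cre adipose the median was 0.33, and Cd3d and Cd3g were also lower, 2.20-fold (2.13 to 2.26) and 2.43-fold (2.38 to 2.48). Foxp3 went the other way, from 52.5 CPM in LN to between 155 and 216 CPM in adipose.

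Izumo1r and Gpr83, the receptor-like surface genes, were highest in LN Tregs and lower in every adipose library. In mouse they are adjacent protein-coding genes on chromosome 9, on opposite strands and transcribed towards each other. The promoters of Gpr83 (GRCm38.p6 chr9:14859960-14860259, plus strand) and Izumo1r (chr9:14903718-14904017, minus strand) are shown as those with the highest ratios of LN to Foxp3Cre adipose libraries, and those of Plagl1 (chr10:13090582-13090881, plus strand) and Swap70 (chr7:110221453-110221752, plus strand) as those with the lowest among genes read in every library. Each sequence is from RefSeq, 5′ to 3′ on the gene's strand, with 250 bases before and 50 after the start, and capitals mark the motif matches described after the values.
Gpr83: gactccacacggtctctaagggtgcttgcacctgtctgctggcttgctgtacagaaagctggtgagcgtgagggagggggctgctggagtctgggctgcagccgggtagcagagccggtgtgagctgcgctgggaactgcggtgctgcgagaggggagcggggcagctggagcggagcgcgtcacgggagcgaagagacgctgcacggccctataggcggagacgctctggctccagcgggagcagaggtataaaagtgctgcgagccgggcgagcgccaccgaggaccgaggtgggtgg
Izumo1r: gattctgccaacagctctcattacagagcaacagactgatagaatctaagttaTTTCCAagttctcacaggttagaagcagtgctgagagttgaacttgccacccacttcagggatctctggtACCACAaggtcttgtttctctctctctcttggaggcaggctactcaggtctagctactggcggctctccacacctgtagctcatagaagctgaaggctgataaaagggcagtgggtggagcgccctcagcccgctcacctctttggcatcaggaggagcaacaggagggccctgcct
Plagl1: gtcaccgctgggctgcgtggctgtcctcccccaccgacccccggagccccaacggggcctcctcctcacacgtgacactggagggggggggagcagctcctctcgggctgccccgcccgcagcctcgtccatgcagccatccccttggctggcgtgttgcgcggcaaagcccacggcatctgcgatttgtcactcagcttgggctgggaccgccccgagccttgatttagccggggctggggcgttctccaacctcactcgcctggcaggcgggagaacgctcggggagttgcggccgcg
Swap70: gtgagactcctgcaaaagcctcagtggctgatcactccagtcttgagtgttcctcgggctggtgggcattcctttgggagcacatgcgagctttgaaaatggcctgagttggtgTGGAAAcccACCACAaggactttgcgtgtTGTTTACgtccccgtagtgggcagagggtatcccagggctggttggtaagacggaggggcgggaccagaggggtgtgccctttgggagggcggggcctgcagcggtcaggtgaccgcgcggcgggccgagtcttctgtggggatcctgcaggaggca

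Gpr83 stood at 68.6 CPM in LN. Among the adipose libraries it was at 0 (lean), 1.47 (obese), 20.4 (10-month Foxp3Cre) and 0 CPM (labelled Med23 KO). Nearly all its reads lay in 2 libraries, LN with 665 and 10-month Foxp3Cre adipose with 197. No read of Gpr83 lay behind the 0 of lean adipose, as recovered from the fold change in the authors' deposited table. Taking 3 reads per library as the limit that a count of 0 allows, Gpr83 was at least 215-fold higher in LN than in lean adipose. Against obese adipose, with 11 reads, LN was 52.6-fold higher (29.2 to 106), and against 10-month Foxp3Cre adipose 3.36-fold higher (2.86 to 3.96). Gpr83 also differed between adipose libraries: 10-month Foxp3Cre adipose was 13.9-fold above obese adipose (7.61 to 28.3). In the library labelled Med23 KO, 4 reads lay behind the listed 0, again from the authors' deposited table, which put Gpr83 28.9-fold lower (11.1 to 107) than in 10-month Foxp3Cre adipose.

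Izumo1r stood at 515 CPM in LN. The adipose libraries held it at 133 CPM (lean), 183 (obese), 72.7 (10-month Foxp3Cre) and 62.7 (labelled Med23 KO). It remained well above detection in every adipose library, with 288 or more reads, unlike Gpr83 beside it on the chromosome. On the deposited scale it was 4.28-fold lower in lean adipose than in LN (4.01 to 4.57) and 3.16-fold lower in obese adipose (2.98 to 3.36). In 10-month Foxp3Cre adipose it was 7.08-fold lower than in LN (6.55 to 7.68), the largest of the 3 differences. Neighbouring levels in the order LN, obese, lean, 10-month Foxp3Cre and Med23 KO label all differed beyond counting error, though the last step was only 1.16-fold (1.01 to 1.34). The nearest other genes on the chromosome were highest in an adipose library and lowest in the library labelled Med23 KO. Mre11a, a DNA repair nuclease gene next to Gpr83, was at 10.4 CPM in LN. In adipose it was at 13.3 (lean), 25.3 (obese), 32.1 (10-month Foxp3Cre) and 5.22 CPM (labelled Med23 KO). Panx1, a channel gene next to Izumo1r, was at 31.5 CPM in LN. In adipose it was at 58.8 (lean), 59.5 (obese), 26.8 (10-month Foxp3Cre) and 4.35 CPM (labelled Med23 KO).

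**Figure D1:**
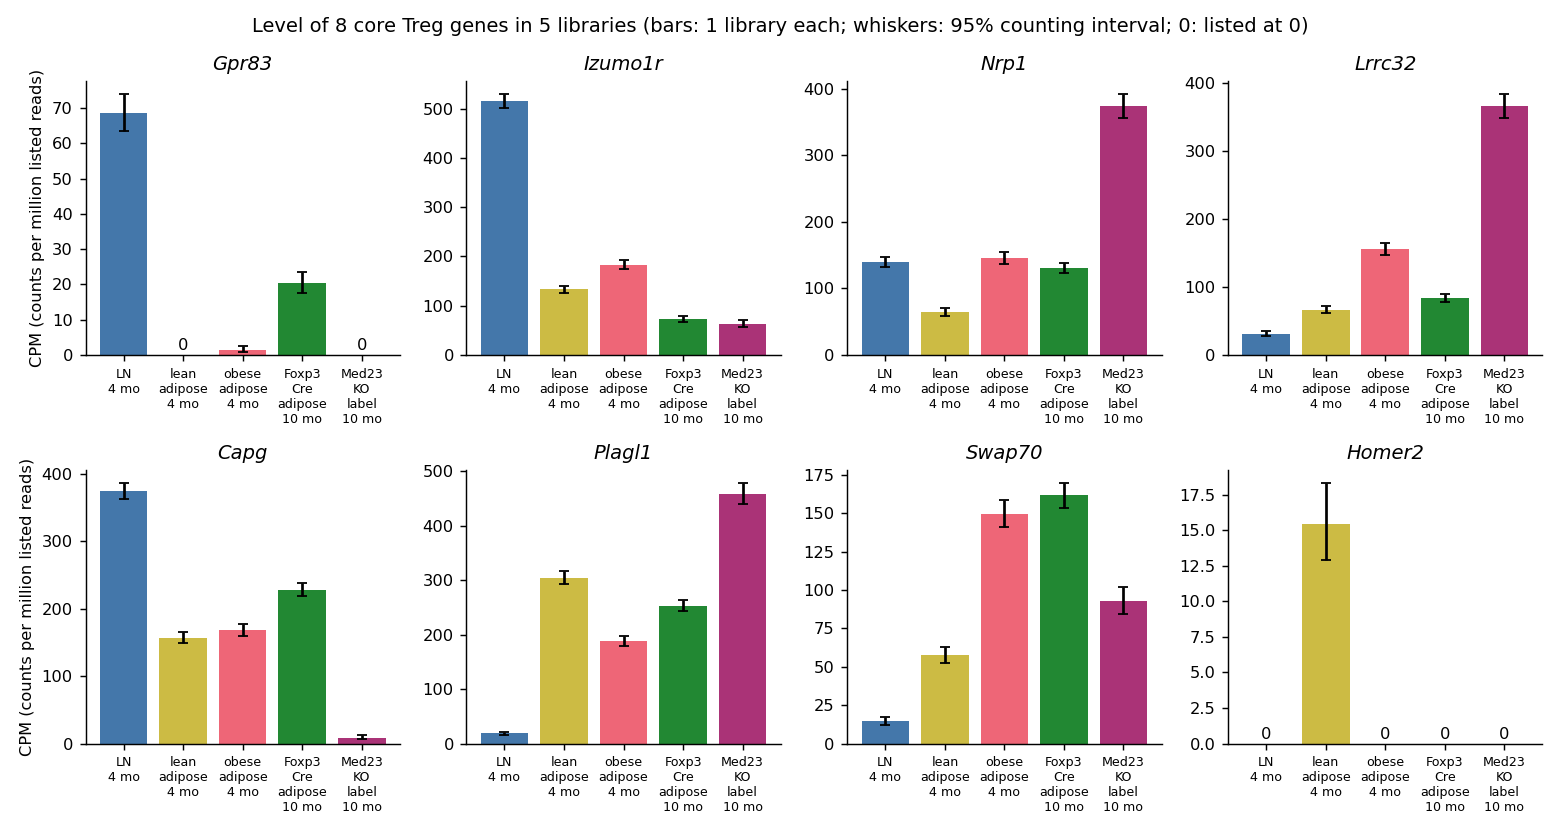
Level of each of the 8 genes in the 5 libraries, in CPM on a linear axis that starts at 0, with 1 bar per library and whiskers for the 95% counting interval. Gpr83, Izumo1r and Capg are tallest in LN, Plagl1 and Swap70 are lowest there, and Homer2 has a bar only in lean adipose, at 15.5 CPM.

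Nrp1 and Lrrc32, the genes of the co-receptor and of the TGF-beta anchor, were both highest in the library labelled Med23 KO. Nrp1 stood at 140.1 CPM in LN, and its adipose levels were 64.4 (lean), 146 (obese), 131 (10-month Foxp3Cre) and 374 CPM (labelled Med23 KO). LN, obese and 10-month Foxp3Cre adipose thus held nearly the same level, with lean adipose below them. On the deposited scale Nrp1 was 2.40-fold lower in lean adipose than in LN (2.17 to 2.65). The difference between obese adipose and LN was within counting error and changed sign with the scale, at a log2 ratio of -0.11 on the deposited scale and 0.05 at equal totals. Against 10-month Foxp3Cre adipose the difference was also within counting error, with LN 1.07-fold higher (0.991 to 1.16). Nrp1 was 2.26-fold higher in obese than in lean adipose (2.04 to 2.51). At 336 scaled counts, the library labelled Med23 KO was 2.32-fold (2.15 to 2.49) above the 145 of 10-month Foxp3Cre adipose. This deposited-scale ratio is smaller than that of the CPM values.

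Lrrc32 stood at 31.2 CPM in LN, and its adipose levels were 66.9 (lean), 156 (obese), 84.3 (10-month Foxp3Cre) and 366 CPM (labelled Med23 KO). LN was the lowest of the 5, and every neighbouring pair in that order differed beyond counting error. On the deposited scale the ratio to LN was 1.95-fold in lean adipose (1.69 to 2.24), just short of the 2-fold size used for counts. At equal totals the lean ratio was 2.15-fold (1.86 to 2.48). The deposited-scale ratio to LN was 4.45-fold in obese adipose (3.92 to 5.06). In 10-month Foxp3Cre adipose it was 2.71-fold (2.37 to 3.10). Obese adipose exceeded lean adipose 2.33-fold (2.11 to 2.58), close to the ratio of Nrp1 in the same libraries. At 329 scaled counts, the library labelled Med23 KO exceeded the 93.6 of 10-month Foxp3Cre adipose 3.52-fold (3.24 to 3.83). This deposited-scale ratio, smaller than that of the CPM values, was the highest of the 8 genes in that comparison.

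Capg, whose product caps the fast-growing ends of actin filaments, stood at 375 CPM in LN. The adipose levels were 157 (lean), 168 (obese), 228 (10-month Foxp3Cre) and 8.92 CPM (labelled Med23 KO). Obese and lean adipose did not differ beyond counting error, with a ratio of 1.07 (0.991 to 1.16). Capg was 2.63-fold lower in lean adipose than in LN (2.47 to 2.80), 2.50-fold lower in obese adipose (2.35 to 2.67) and 1.64-fold lower in 10-month Foxp3Cre adipose (1.56 to 1.73). The lowest level by far was in the library labelled Med23 KO, with 41 reads. It lay 31.6-fold below 10-month Foxp3Cre adipose (23.2 to 44.1).

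Swap70, whose product binds actin filaments and Rac, had the opposite order across tissues. It stood at 14.6 CPM in LN and, in adipose, at 57.5 (lean), 149 (obese), 162 (10-month Foxp3Cre) and 92.9 CPM (labelled Med23 KO). All 4 adipose libraries lay above LN, and obese and 10-month Foxp3Cre adipose were close together, at a ratio of 1.08 (1.002 to 1.17). On the deposited scale the Swap70 ratio to LN was 3.56 in lean adipose (2.95 to 4.32) and 9.05 in obese adipose (7.597 to 10.9). In 10-month Foxp3Cre adipose the ratio was 11.0 (9.28 to 13.2). Within adipose, obese exceeded lean 2.60-fold (2.33 to 2.89), and the library labelled Med23 KO was 2.15-fold below 10-month Foxp3Cre adipose (1.93 to 2.39). That last difference passed 2-fold on the deposited scale, at a log2 ratio of -1.09, and not at equal totals (-0.79), centred on all genes (-0.94) or relative to Foxp3 (-0.54). An antisense gene, Gm45515, overlaps its exons and was listed at 0 in all 5 libraries.

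Plagl1 stood at 18.98 CPM in LN and, in adipose, at 305 (lean), 188 (obese), 253 (10-month Foxp3Cre) and 459 CPM (labelled Med23 KO). Every adipose library thus lay far above LN, the nearest being obese adipose. Of the 6 genes read in all 5 libraries it had the highest ratio of 10-month Foxp3Cre adipose to LN, 13.4-fold (11.5 to 15.6), and in obese adipose it was 8.80-fold above LN (7.55 to 10.3). Within adipose its order was unlike that of Swap70: obese was 1.62-fold below lean (1.52 to 1.73), and the library labelled Med23 KO was 1.47-fold above 10-month Foxp3Cre adipose (1.38 to 1.56). A small RNA gene on the opposite strand, Gm27741, overlaps its exons. It was at 15.2 CPM in the library labelled Med23 KO, 1.52 in lean adipose and 0 in the other 3, and the sources used here do not say whether the authors' counting used strand.

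Homer2 had a listed value above 0 in 1 library alone, lean adipose, with 132 reads or 15.5 CPM (12.9 to 18.3). It was listed at 0 in LN and obese adipose and had no value in the 10-month table, which was taken as 0. For these adipose libraries the tables do not show whether reads worth less than 1 scaled count lay behind it. Against LN, where no read lay behind the 0, lean adipose was at least 45.3-fold higher, with 3 reads as the limit of a count of 0. Such a pattern was shared by 141 of 8145 genes with 10 CPM or more in lean adipose, or 1.73%. Of the 10 listed fibroblast and mesothelial genes, 1 was among them, the fibroblast gene Pdgfra. The fibroblast and mesothelial marker list summed to 1157 CPM in lean adipose, with 8 of its 10 genes above 0, against 8.56 to 73.6 CPM in the other libraries, and the part of other cells in the Homer2 signal was not tested. In bulk RNA such as this, fewer cells of a type and less RNA per cell cannot be told apart.

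Motifs of 5 factor families were searched in the 300-base promoters on both strands. They were TGTTTAC for forkhead factors, TTCNNNGAA for STAT factors, TGANTCA for AP-1, TGTGGT for RUNX factors and TGGAAA for NFAT. RefSeq gave 8 promoters for 7 of the 8 genes, with none for Lrrc32 and 2 for Homer2. Swap70 held a forkhead, a RUNX and an NFAT match, and Izumo1r a RUNX and an NFAT match. The second promoter of Homer2 also held a RUNX and an NFAT match. Gpr83, Nrp1, Capg, Plagl1 and the first promoter of Homer2 held none of the 5. Of all 32851 promoters of this length, 3.65% held the forkhead motif, 8.30% the STAT, 7.81% the AP-1, 16.8% the RUNX and 21.4% the NFAT motif. A match is a description of letters in this window alone. The promoters of Gpr83 and Plagl1 were rich in G and C, at 67% and 70.7% of bases against a median of 52.7% for all promoters, while that of Izumo1r was at 52.3%.

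Against LN, the 8 genes did not move one way. In lean adipose, Plagl1, Swap70 and Homer2 (3 of 8) were higher by 2-fold or more and Gpr83, Izumo1r, Nrp1 and Capg (4 of 8) were lower, where 37.6% of all 13501 measured genes were higher and 32.1% lower by that size. Of genes that reached 20 in either library, a level that most members reached, 30.9% were higher and 28.8% lower. In obese adipose, Lrrc32, Plagl1 and Swap70 (3 of 7 measured) were higher and Gpr83, Izumo1r and Capg (3 of 7) lower, against 41.7% and 23.7% of all genes and 27.3% and 26% of those at 20 or more. In 10-month Foxp3Cre adipose, Lrrc32, Plagl1 and Swap70 (3 of 7) were higher and Gpr83 and Izumo1r (2 of 7) lower, against 34.7% and 29% of all genes and 25.9% and 26.8% of those at 20 or more. These 3 comparisons share the LN library, so they are not independent of each other. With so many genes past the 2-fold size, the members' counts are not set apart from the background. The median log2 ratio of the measured members, on values with 1 added, was -0.16, -0.11 and -0.10 in the 3 comparisons, against 0.14, 0.44 and 0.12 for all measured genes. The choice of scale moved these background medians, from 0.14 to 0.28 in lean and from 0.44 to 0.60 in obese adipose at equal totals. Centring the ratios of obese adipose on their median took the calls over all genes from 6125 higher and 3471 lower to 4597 and 4596, and left the members' counts at 3 and 3. Centring on genes of like length left 3 higher and 1 lower, Izumo1r (-0.98) and Capg (-0.65) falling short of 2-fold. Macrophage and dendritic cell markers moved with all 3 comparisons: 12 of 13 measured were higher in lean, 15 of 16 in obese and 11 of 12 in 10-month Foxp3Cre adipose, with summed levels of 925, 5197 and 698 CPM against 20.7 CPM in LN. Their part in the members' ratios was not tested.

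**Figure D2:**
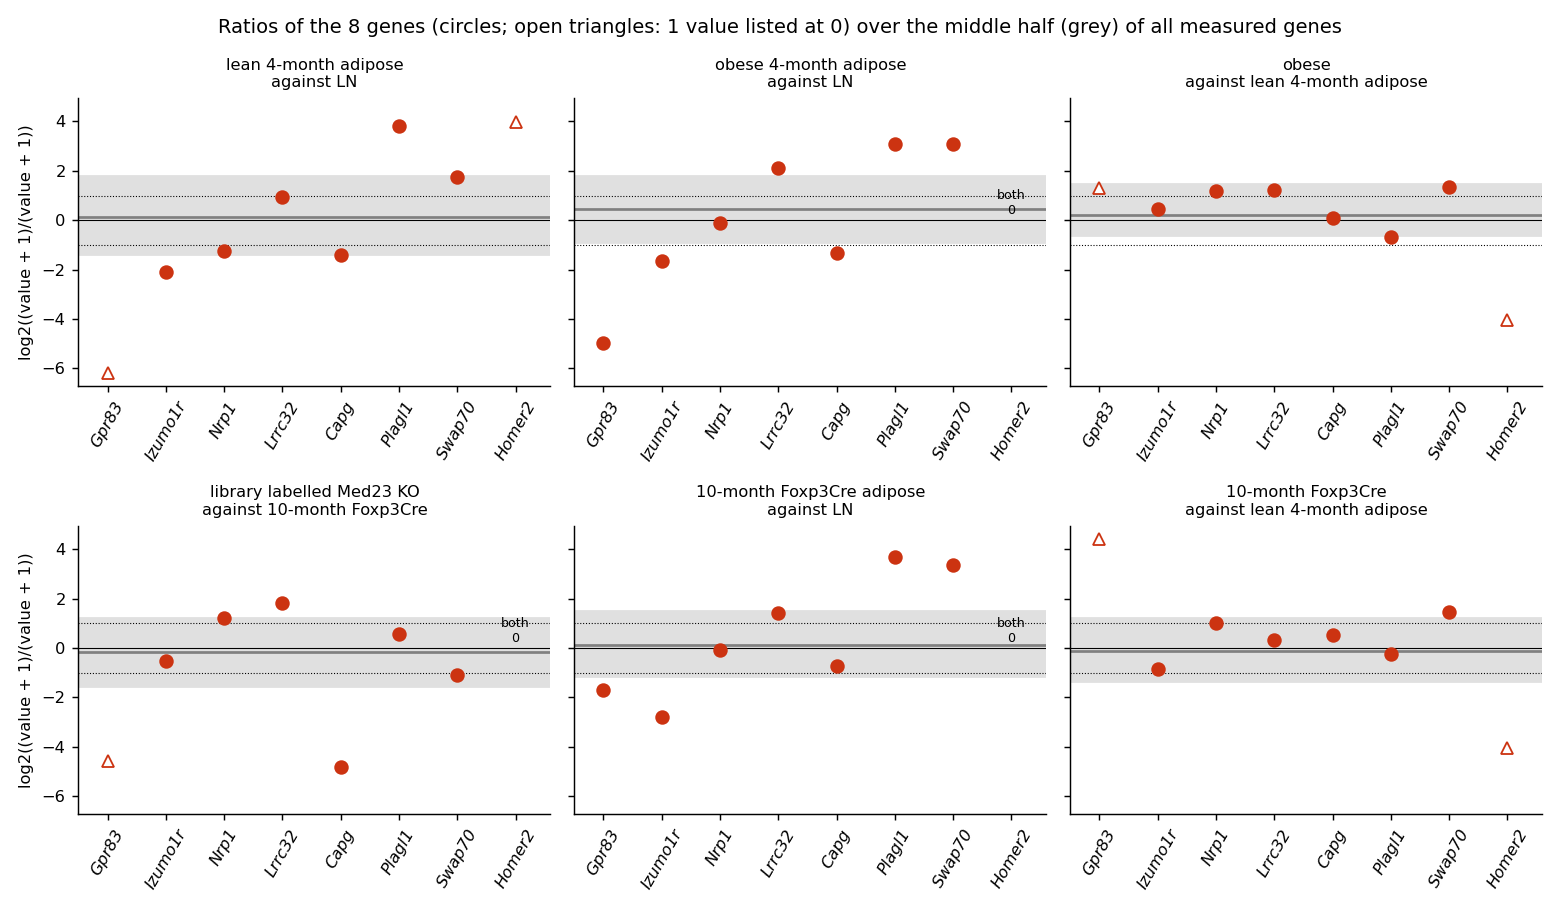
Log2 ratio of each gene in 6 comparisons, on values with 1 added, over a grey band for the middle 50% of all measured genes, with dotted lines at 2-fold and open triangles where 1 value is listed at 0. Plagl1 and Swap70 lie above the band against LN in obese and 10-month Foxp3Cre adipose, and Capg and Gpr83 lie far below it in the library labelled Med23 KO.

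Between obese and lean 4-month adipose, which were sorted at the same age, Gpr83, Nrp1, Lrrc32 and Swap70 (4 of 8) were higher by 2-fold or more in obese and Homer2 (1 of 8) was lower. Of all genes 34% were higher and 18.6% lower, and of those at 20 or more 17.4% and 15%. The Gpr83 entry rests on 11 reads against 0. Izumo1r was 1.38-fold higher in obese adipose (1.27 to 1.49), Capg did not differ beyond counting error, and Plagl1 was 1.62-fold lower. Foxp3 itself was 1.20-fold lower in obese adipose (1.12 to 1.29). Marker lists of other cells moved with this comparison: the 18 macrophage and dendritic cell markers summed to 925 CPM in lean adipose, with 12 above 0, and to 5197 CPM in obese adipose, with 16 above 0. The 8 adipocyte markers summed to 13.7 and 306 CPM, Plin1, Cfd and Lep being at 0 in both, as were the dendritic cell genes Clec9a and Siglech. The fibroblast and mesothelial list moved the other way, all 8 measured being lower in obese adipose, from 1157 to 56.4 CPM. The part of such cells in the members' differences was not tested.

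Age was compared within adipose tissue by setting 10-month against lean 4-month Foxp3Cre mice. Gpr83, Nrp1 and Swap70 (3 of 8) were higher by 2-fold or more at 10 months and Homer2 (1 of 8) was lower, against 28.7% and 32% of all genes and 17.9% and 26.5% of those at 20 or more. Gpr83 was at 20.4 CPM at 10 months and at 0 in the lean library. Nrp1 was 2.03-fold higher (1.84 to 2.25) and Swap70 2.81-fold higher (2.54 to 3.12). Izumo1r was 1.83-fold lower (1.66 to 2.01) and Plagl1 1.20-fold lower (1.14 to 1.27). The fibroblast and mesothelial markers moved with this comparison, all 8 measured being lower at 10 months, from a sum of 1157 to 73.6 CPM, and 8 of 14 macrophage and dendritic cell markers were lower and 2 higher, from 925 to 698 CPM. Their part in the members' differences was not tested. Age cannot be told apart here from sex, as read from Ddx3y and Xist, or from the Gapdh level that sets the lean library apart.

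Between the library labelled Med23 KO and 10-month Foxp3Cre adipose, Nrp1 and Lrrc32 (2 of 7 measured) were higher by 2-fold or more and Gpr83, Capg and Swap70 (3 of 7) were lower. Of all genes 28.6% were higher and 34.9% lower, and of those at 20 or more 22.3% and 26.9%. At equal totals the balance over all genes turned, from 3862 higher and 4705 lower to 4466 and 4197, and the all-gene median from -0.15 to 0.15. On that scale Swap70 was no longer among the lower members, which left 2 (Gpr83, Capg). On the deposited scale the extremes were Capg, 31.6-fold lower, and Gpr83, 28.9-fold lower, while Lrrc32 was 3.52-fold higher. Foxp3 was 1.47-fold lower (1.35 to 1.61) and Izumo1r 1.43-fold lower (1.25 to 1.65). The Izumo1r ratio was small enough to change sign with the scale, from a log2 of -0.51 as deposited to 0.05 relative to Foxp3. The median log2 ratio of the 7 members was -0.51 against -0.15 for all genes. Macrophage and dendritic cell markers summed to 698 CPM in 10-month Foxp3Cre adipose and 172 CPM in the library labelled Med23 KO. Of 13 measured, 10 were lower in the latter, with Csf1r, Cd68 and Mrc1 at 0, and 2 were higher, Itgax and Flt3. The part of such cells in the members' differences was not tested. The direction of these differences rests on a library in which Med23 was higher, and not lower, than in its comparison library.

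**Figure D3:**
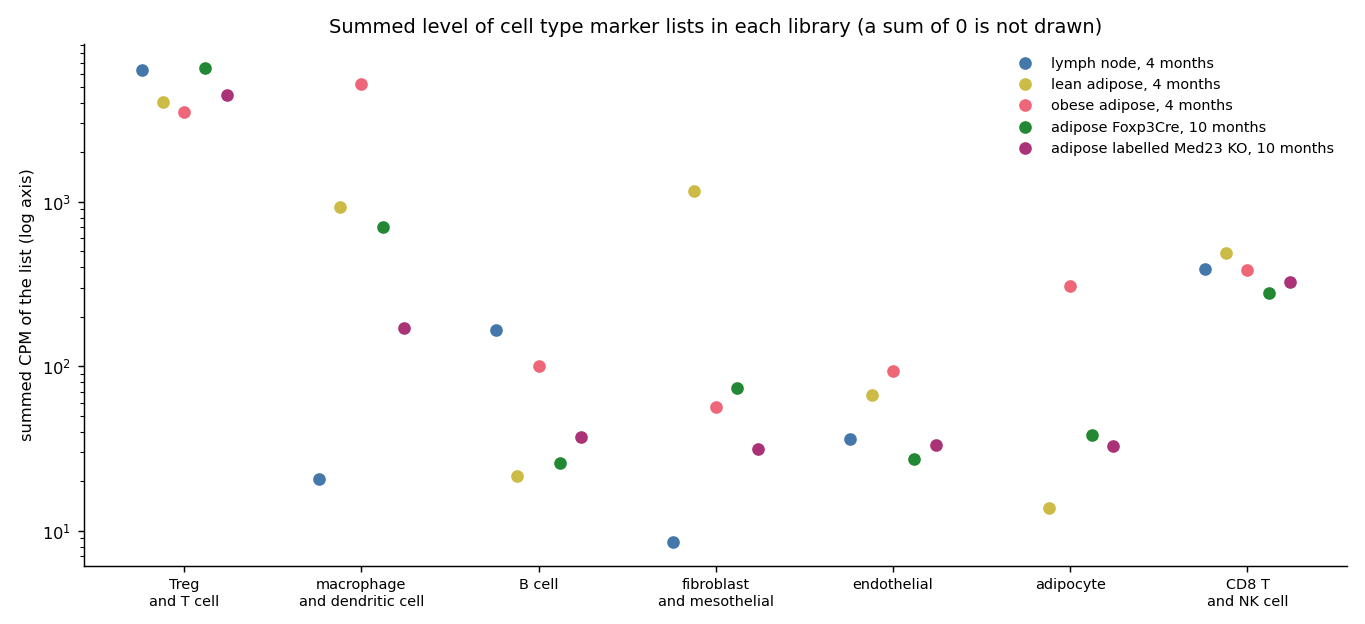
Summed CPM of 7 cell type marker lists in each library, on a log axis, with 1 point per library. The Treg and T cell list is at 3504 to 6525 CPM everywhere, the macrophage and dendritic cell list runs from 20.7 CPM in LN to 5197 CPM in obese adipose, and the fibroblast and mesothelial list is highest in lean adipose.

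The 18 other core Treg genes examined alongside lay on both sides of LN. Against it, 6 were higher by 2-fold or more and 5 lower in lean adipose, 5 and 3 in obese adipose, and 9 and 3 in 10-month Foxp3Cre adipose. Of all measured genes, 37.6% were higher and 32.1% lower in lean adipose and 41.7% and 23.7% in obese adipose. In 10-month Foxp3Cre adipose these shares were 34.7% and 29%. The median log2 ratios of the 18 genes were 0.38, 0.42 and 0.70, beside 0.14, 0.44 and 0.12 for all measured genes. Itgae, the integrin that binds E-cadherin, had the lowest ratio: LN held 186 scaled counts and lean adipose 0, and obese adipose was 6.25-fold below LN (5.46 to 7.19). Dusp4, a phosphatase of MAP kinases, was 9.32-fold higher in lean (6.46 to 13.9) and 9.55-fold higher in obese adipose (6.60 to 14.2). In the library labelled Med23 KO, 3 of the 18 were higher and 5 lower than in 10-month Foxp3Cre adipose. Of all measured genes 28.6% were higher and 34.9% lower there, and the median of the 18 was -0.25 beside -0.15 for all genes. Il2ra, the high-affinity chain of the interleukin 2 receptor, was 5.10-fold lower there (4.84 to 5.38).

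The pathway genes listed beside each member are counted here against the shares of all measured genes. Those shares were 37.6% higher and 32.1% lower in lean adipose against LN, 41.7% and 23.7% in obese adipose against LN, and 28.6% and 34.9% in the library labelled Med23 KO against 10-month Foxp3Cre adipose, and the all-gene medians were 0.14, 0.44 and -0.15. Of 19 TGF-beta activation and receptor genes listed beside Lrrc32, 15 were measured in lean adipose against LN, 7 higher and 2 lower, with a median log2 ratio of 0.97. In obese adipose 8 of 16 were higher and 2 lower, with a median of 1.03. Itgav, the integrin chain that releases TGF-beta from its latent form, was 19.3-fold higher in lean (18.3 to 20.4) and 13.9-fold higher in obese adipose (13.2 to 14.7). Furin, the protease that cuts the TGF-beta precursor, was at 162 and 62.4 scaled counts against 0 in LN. In the library labelled Med23 KO, where Lrrc32 was highest, the list had 1 gene higher (Smad7) and 3 lower of 15 measured, with a median of -0.10, and Furin was 4.43-fold below 10-month Foxp3Cre adipose (3.74 to 5.27).

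Beside Nrp1, neuropilin ligands and co-receptors were sparse: 6 of 19 listed genes were above 0 in LN and 8 to 11 in the adipose libraries. Nrp2, the other neuropilin, was at 0 in LN and at 35.4 scaled counts in obese adipose. It was 3.40-fold higher (2.65 to 4.39) in the library labelled Med23 KO than in 10-month Foxp3Cre adipose, the comparison in which Nrp1 was 2.32-fold higher. Of 15 list genes measured in that comparison, 8 were higher and 4 lower, with a median of 1.09. Beside Izumo1r, 3 of 8 listed folate genes were measured in lean adipose against LN, 0 higher and 2 lower, with a median of -1.71. In obese adipose 2 of 5 were higher and 1 lower, with a median of -0.48. The other folate receptor Folr1 was at 0 in all 5 libraries, and Folr2 was above 0 in obese adipose alone, at 2.51 scaled counts.

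Of 13 actin genes listed beside Capg, 11 were measured in lean adipose against LN, 1 higher and 5 lower, with a median of -0.91. Pfn1, which supplies actin monomers, was 8.91-fold lower (8.54 to 9.30) and Cfl1, which severs filaments, 5.91-fold lower (5.71 to 6.12). Gsn, the gelsolin gene and a relative of Capg, went the other way, with 1.08 scaled counts in LN and 96.0 in lean adipose. In obese adipose against LN, where Capg was 2.50-fold lower, 4 of 12 were higher and 5 lower, with a median of 0.09. In the library labelled Med23 KO, 2 of 12 were higher and 4 lower, with a median of -0.50, and Actb was at a log2 ratio of -1.15 where Capg was at -4.82. Beside Swap70, 9 of 10 listed genes were measured in lean adipose against LN, 2 higher and 2 lower, with a median of 0.15. In obese adipose 3 of 9 were higher and 1 lower, with a median of 0.43. Rac2, the gene of a Rac protein, was 6.89-fold lower in lean (6.57 to 7.23) and 3.61-fold lower in obese adipose (3.47 to 3.75). Def6, a relative of Swap70, was 5.56-fold higher in lean (4.51 to 6.91) and 3.28-fold higher in obese adipose (2.62 to 4.14). In 10-month Foxp3Cre adipose Def6 was 3.34-fold above LN (2.68 to 4.19). Irf4, whose protein is known to bind the products of Swap70 and Def6, was 34.8-fold higher in lean (27.6 to 44.7) and 6.38-fold higher in obese adipose (4.96 to 8.32). It was 15.6-fold lower (12.5 to 19.8) in the library labelled Med23 KO than in 10-month Foxp3Cre adipose, where Swap70 was 2.15-fold lower.

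Beside Plagl1, 8 of 13 listed PLAG family and imprinted genes were measured in lean adipose against LN, 7 of them higher and 1 lower, with a median of 2.70. Cdkn1a, a cell cycle inhibitor that Plagl1 is known to induce, was 16.2-fold higher in lean (12.99 to 20.6) and 18.1-fold higher in obese adipose (14.4 to 22.9). In the library labelled Med23 KO, where Plagl1 was higher, Cdkn1a was 3.76-fold lower (3.34 to 4.23). H19 and Grb10, imprinted genes, were at 21.6 and 10.9 scaled counts in lean adipose and listed at 0 in the other 4 libraries, unlike Plagl1. The fibroblast and mesothelial list was likewise highest in lean adipose, at 1157 CPM, and its part in these values was not tested. Beside Homer2, 10 of 11 listed HOMER family and NFAT genes were measured in lean adipose against LN. Of these, 5 were higher and 3 lower, with a median of 0.59. In obese adipose 4 of 10 were higher and 2 lower, with a median of 0.68. Ppp3cc, a calcineurin subunit gene, was 8.23-fold lower in lean adipose than in LN (7.05 to 9.67). Homer1, a relative of Homer2, had a wider presence than Homer2. It was at 4.55 scaled counts in LN and 237 in lean adipose, 52.0-fold higher (38.4 to 72.4), and 14.8-fold higher in obese adipose than in LN (10.8 to 20.8). Homer3 was at 0 in all 5 libraries.

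Levels of different genes can be compared per kilobase of merged exons. In LN, Izumo1r was at 222 CPM per kb and Capg at 148, followed by Nrp1 at 14.3, Gpr83 at 13.5, Lrrc32 at 6.65, Plagl1 at 2.43 and Swap70 at 1.81. The library labelled Med23 KO had another order: Lrrc32 led at 78.2 CPM per kb, before Plagl1 at 58.7, Nrp1 at 38.2, Izumo1r at 27.0, Swap70 at 11.5 and Capg at 3.53. Izumo1r and Capg also held the first 2 places in lean adipose, at 57.3 and 62.2, and in obese adipose, at 79.1 and 66.6. In 10-month Foxp3Cre adipose Capg led at 90.2, before Plagl1 at 32.4 and Izumo1r at 31.4. The 2 genes that led in LN were the 2 with the shortest exons, 2.32 kb for Izumo1r and 2.53 kb for Capg. The other 6 spanned 4.69 to 12.6 kb.

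Gene length moved with the comparison to LN and with that between the 10-month libraries. Among all genes at 20 or more scaled counts in at least 1 library, those around 1.84 kb had a median log2 ratio of -0.96 in lean adipose and those around 13.1 kb one of 0.46. In obese adipose the medians ran from -1.01 around 1.89 kb to 0.53 around 13.3 kb, and in 10-month Foxp3Cre adipose from -1.11 around 1.16 kb to 0.37 around 13.3 kb. For the library labelled Med23 KO against 10-month Foxp3Cre adipose they ran from -0.63 around 2.04 kb to 0.27 around 13.3 kb. Set against genes of like length, a comparison chosen after the data were seen, Capg fell short of 2-fold in lean and obese adipose, at -0.77 and -0.65, and Izumo1r in obese adipose, at -0.98. Izumo1r stayed 2-fold lower in lean adipose, at -1.47, and in 10-month Foxp3Cre adipose, at -2.15. Gpr83 and Nrp1 were lower than genes of their length in lean adipose, at -6.34 and -1.71, and Plagl1 and Swap70 were higher, at 3.30 and 1.30. The part of RNA quality in these ratios was not tested.

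**Figure D4:**
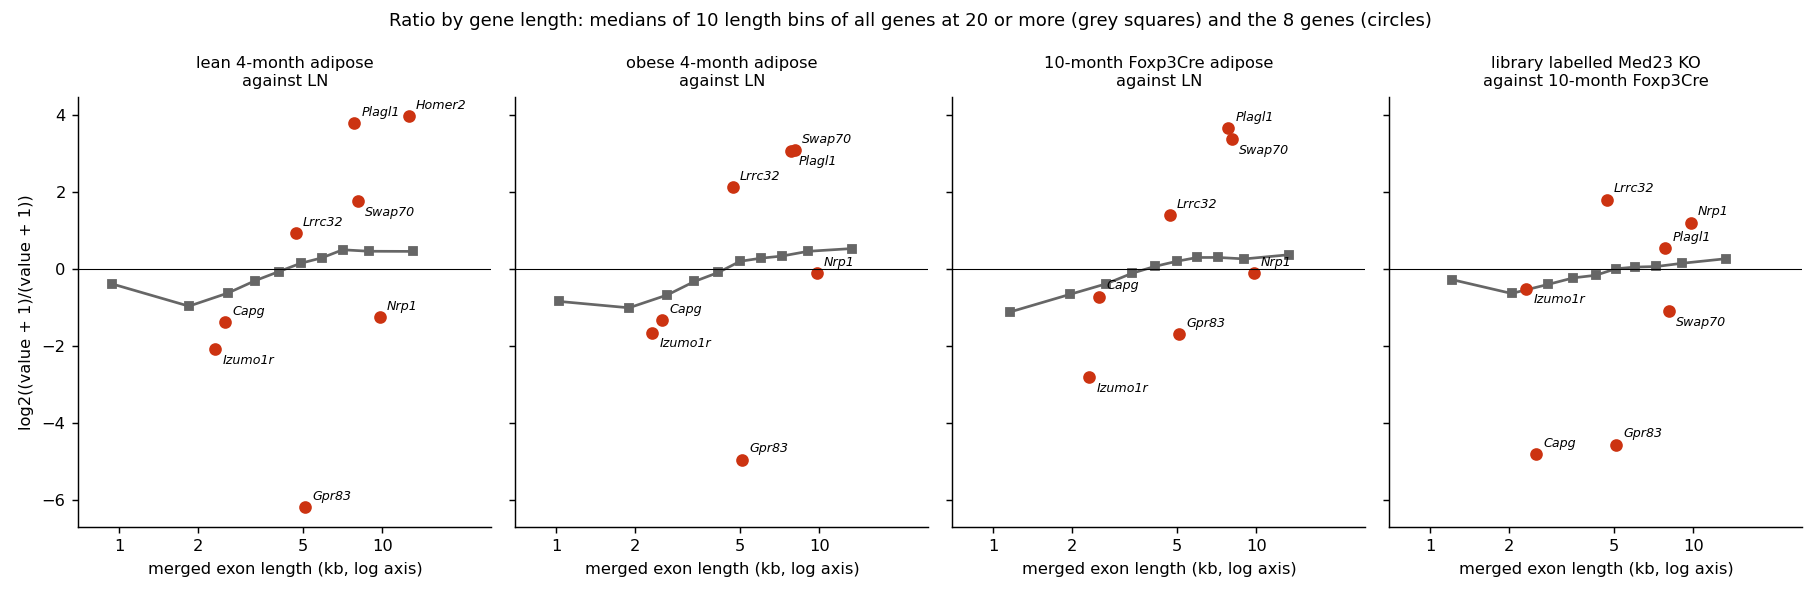
Log2 ratio against merged exon length in kilobases on a log axis, for 4 comparisons, with grey squares for the medians of 10 length bins of all genes at 20 or more and circles for the 8 genes. Capg and Izumo1r lie in the range of lengths where the grey line is below 0, and Plagl1 and Swap70 lie above the line against LN.

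Foxp3 was 3.73-fold higher in lean (3.38 to 4.12), 3.05-fold higher in obese (2.75 to 3.38) and 3.53-fold higher in 10-month Foxp3Cre adipose (3.20 to 3.90) than in LN, so ratios to Foxp3 give the members another order. This scale was also chosen after the data were seen. Per Foxp3 read, Izumo1r fell from 9.82 reads in LN to between 0.392 and 1.02 in adipose, and Capg from 7.14 to between 0.0575 and 1.23. Nrp1 stood at 2.67 in LN and, in adipose, at 0.298 (lean), 0.808 (obese), 0.706 (10-month Foxp3Cre) and 2.41 (labelled Med23 KO). Swap70 was at 0.279 in LN and 0.266 in lean adipose, with intervals that overlap, and at 0.829 in obese and 0.871 in 10-month Foxp3Cre adipose. Lrrc32 was at 0.593 in LN and 0.309 in lean adipose, a lower ratio where its CPM was higher. Plagl1 was at 0.361 per Foxp3 read in LN and 1.04 to 2.96 in the adipose libraries. Its log2 ratio to LN was smaller on this scale, at 1.92 in place of 3.80 in lean and 1.49 in place of 3.08 in obese adipose, and the Swap70 ratio in obese adipose was 1.51 in place of 3.10.

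**Figure D5:**
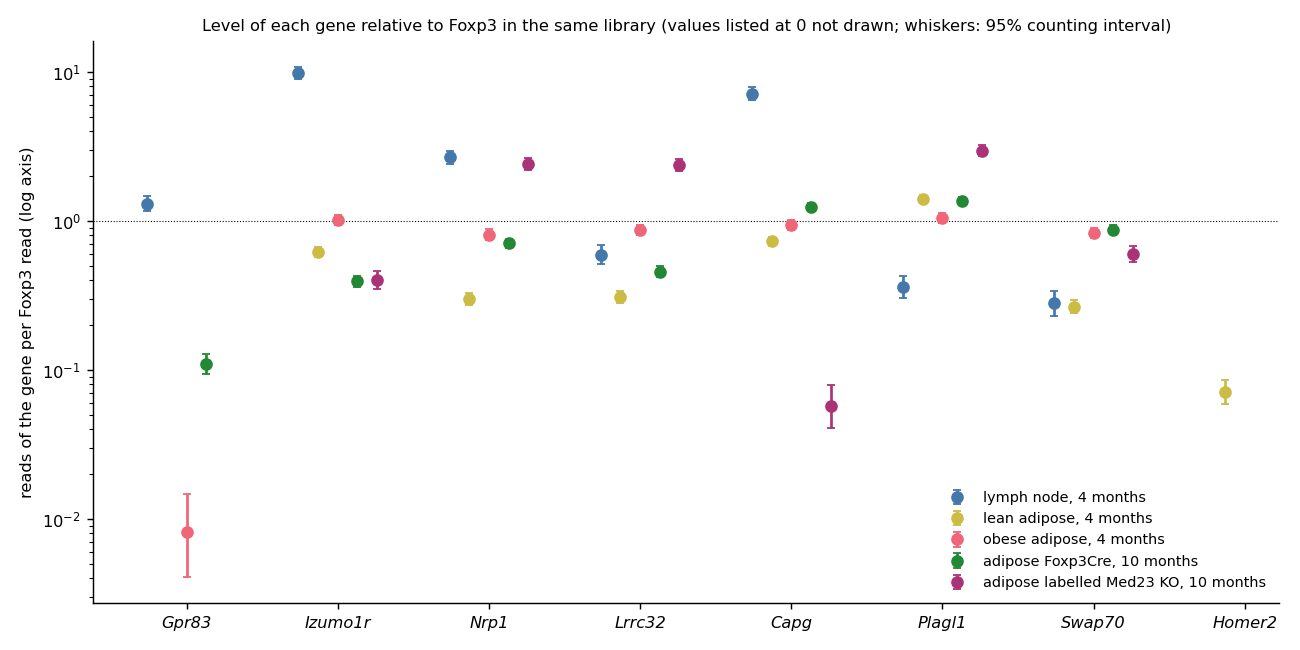
Reads of each gene per Foxp3 read in the same library, on a log axis, with whiskers for the 95% counting interval and no point where a gene is listed at 0. Izumo1r and Capg are above 7 in LN alone, and Plagl1 is above 1 in all 4 adipose libraries and below 1 in LN.

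The likeness of patterns over the 5 libraries was measured as the root mean square difference of centred log2(CPM + 1), over 9835 genes that reached 10 CPM. Among the members the nearest pairs were Nrp1 with Lrrc32, at 0.84, Plagl1 with Swap70, at 0.94, and Lrrc32 with Swap70, at 0.98. Gpr83 and Izumo1r, though neighbours on the chromosome, were 2.06 apart. Outside the list each member had nearer genes. Capg was nearest to Cinp, at 0.06, and Sdf2l1, at 0.19, both at 0 in the library labelled Med23 KO. Nrp1 was nearest to Thada, at 0.10, and B3gntl1, at 0.15. Zfp330 was 0.21 from Izumo1r. Plagl1 was nearest to Cmip, at 0.16, and Ric1, at 0.18. Swap70 was nearest to Zfp729b, at 0.17, and Ldah, at 0.18, and Lrrc32 to Cdc14b and Abcb1b, each at 0.22. Gpr83 had no gene as near, with Gins3 at 0.53. Homer2 was nearest to Col5a2 and Amotl1, which were likewise listed at 0 in all libraries but lean adipose. With 5 libraries such nearness describes these samples alone.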

How the data were processed

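Tregs were sorted and TruSeq libraries were made from 3 ug of total RNA, per the labels' protocols. Alignment tools (TopHat2 2.0.9, Bowtie2 2.0.6) and the build, mm8, are named in the submitters' processing notes. For the counter, annotation and strand setting the sources used here give nothing. The authors deposited 3 tables of 2 libraries each, and both 4-month tables hold the same LN library. Each gives, per the file headers, Ensembl gene IDs, a signal per library, a log2 fold change, a p-value and a q-value. From the values, 100% of the nonzero signals divide by 1 library-specific step to whole numbers (tolerance 0.01 read), so the signal is a scaled read count whose step is 1 read. The steps ran from 0.108 to 0.196. Values under 1 were listed as 0, so no count model was fitted. Reads behind a listed 0 were recovered from the authors' log2 fold change, where 0.5 stands for no reads. The deposited p-values and q-values compare 2 libraries and were not used.

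Ratios are log2((value + 1)/(value + 1)) for counts of genes at 2-fold, and plain ratios for single genes, with exact Clopper-Pearson counting intervals conditional on the reads of both libraries, and exact Poisson intervals for levels. Intervals cover counting error alone, since PCR copies were not marked. The 8 members and the 15 other lists were chosen with earlier results of these data known. All members are reported. Some genes of like pattern are not reported here. Of the other lists, the 3 genes with the largest ratios in a comparison could be named. Xist, Ddx3y, Gapdh, Folr1, Homer3, and Nrp2 and Actb in the 10-month comparison, were named after their values were seen. So were the marker genes Csf1r, Itgax, Flt3, Clec9a, Siglech, Pdgfra, Plin1, Cfd and Lep, which are outside that rule. Symbols, exon lengths and overlaps came from GENCODE M21 (GRCm38) and promoters from RefSeq GRCm38.p6. The authors' build differs, so no coordinate was joined to their files. Calculations in Python 3.11.15 (matplotlib 3.10.9, pandas 2.3.3, scipy 1.17.1, numpy 2.4.6) were tested on simulated data.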

Additional observations from a re-analysis of the deposited data

How the results depend on the processing

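Counts of members past 2-fold were recomputed with a pseudocount of 0.5 or 5, a minimum of 10, a 1.5-fold size, another scaling, centring on all genes and all IDs of a symbol summed, and, chosen after the data were seen, relative to Foxp3 and to genes of like length. At 1.5-fold, 2 members in place of 1 were lower in obese than in lean adipose, and 2 in place of 1 in 10-month Foxp3Cre than in lean adipose. Relative to genes of like length, 1 in place of 3 was lower in obese adipose than in LN. Relative to Foxp3, 4 in place of 2 were lower in 10-month Foxp3Cre adipose than in LN, Swap70 in lean adipose against LN turned to -0.11 and Lrrc32 in 10-month Foxp3Cre adipose against LN to -0.39 (log2). The cause was not tested. All other counts stayed within 1.5 times. No paired analysis was possible because each group has 1 library, and for the same reason no library could be left out. Depth limits Gpr83 in obese adipose (11 reads) and Capg in the library labelled Med23 KO (41 reads), which had the fewest reads.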
